A study of Homo sapiens with 35 samples.

Results

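The genes described here are 35 targets of the transcription factor p53, listed apart from its apoptosis genes. They were taken by name from the 60665 genes of the count table and followed over all 35 libraries, and 34 of them passed the filter on low counts. The remaining member, TRIM22, an interferon-inducible member of the tripartite motif family, had 0 to 8 counts per library and was not tested. p53 binds short paired DNA elements and raises transcription of genes that stop the cell cycle, repair DNA, alter metabolism or end the p53 response itself. Its level is normally held down by MDM2, a ubiquitin ligase that is also a p53 target, so that the pathway limits its own activity. HEK293T cells, a human embryonic kidney line, carry the large T antigen of SV40, which binds p53, so that the pathway is not that of a cell with free p53.

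The libraries are total RNA without ribosomal RNA, taken 72 h after transfection with 5 nM siPOOL, which combines many siRNAs to deplete 1 transcript. The INTS13, HDGF and ZNF655 siPOOLs (libraries 3 and 4 each) are set against 4 control siPOOL libraries (3a, 3b, 4a and 4b), and these libraries, with those without glucose, are called the second set below. ZMYND8-depleted cells (libraries 3 and 4) have their own 2 controls, labelled for ZMYND8. ZEB1, TSPYL2, ZNF608, ZNF609 and ZNF687 depletion (libraries 1 and 2 each) share 3 controls (1a, 1b and 2), the first set. INTS13-depleted (n = 2), HDGF-depleted (n = 2) and control cells (n = 4) were also kept without glucose for 24 h. INTS13 is a subunit of Integrator, a complex that cleaves nascent RNA. No label names a control for ZNF655, and the second-set controls were used. The labels do not say whether replicates were grown apart, so the p-values speak of the spread among these libraries, which may be technical, and all cells come from 1 line.

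Each siPOOL target was lower in its own depletion, at 8.36% (HDGF) to 56.1% (ZNF608) of control with no overlap of libraries. Libraries held 16766673 to 50790278 counts in all, of which 32830 to 94407 fell on the members. Of markers of this line, VIM (median 490 CPM, counts scaled to library size), KRT18 (53.8) and NEFM (20.2) were expressed, while LHX1 (1.83) and PAX2 (0.852) were low. PTPRC, CD3E, KRT5 and HBB, markers of blood and keratinocytes, had a median of 0 CPM. First-set libraries numbered 1 and 1a stood apart from the others of that set: ribosomal protein genes took 10.4% to 16.7% of their counts, against 7.45% to 10.1% in the rest of the first set.

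In control cells with glucose the members spanned a wide range of level. Per kilobase of exon, CCNG1, which encodes cyclin G, was highest at 95.2 ± 9.07 CPM per kb (SD, n = 4), followed by TRIAP1 (32.2 ± 1.36) and AEN (20.0 ± 1.19). MDM2 stood at 15.3 ± 0.264 CPM per kb, and PLK3 (0.553 ± 0.0936), ACTA2 (0.534 ± 0.0254), DRAM1 (0.382 ± 0.110) and GDF15 (0.0448 ± 0.0438) lay at the low end. In 20 of the 34 steps between neighbours in this order the levels lay within 1 SD of each other on each side, so their order is not resolved. GDF15 had 0 to 6 counts in each of these controls. Among the genes most often named below, the count table (hg38) places PHLDA3 (ENSG00000174307.7) on chromosome 1 at 201464278-201469237, SPATA18 (ENSG00000163071.11) on chromosome 4 at 52051304-52097299, MDM2 (ENSG00000135679.25) on chromosome 12 at 68808177-68850686 and ZMAT3 (ENSG00000172667.11) on chromosome 3 at 178960121-179072215; counts are over the exons of each gene.

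The promoter sequences of 5 members with a p53 half-site are given, of which DDB2 holds a pair of half-sites and the others hold 1 each. A link between these sites and the changes in level was not tested. Both strands of the RefSeq promoters (GRCh38.p14, 250 bases before to 50 after the start) were searched for the 10-base p53 half-site consensus. Windows were found for 27 members. The half-site lay in 7 of their 37 windows (18.9%), against 2329 of all 35116 windows (6.63%), and a pair of half-sites at most 13 bases apart lay in 1 member window and in 10 of all windows (0.028%). Capitals mark the half-sites, and each sequence is on the strand of its gene, 5′ to 3′.
DDB2, chr11:47214724-47215023, plus strand, with the pair, which begins 5 bases into the transcribed part
DDB2: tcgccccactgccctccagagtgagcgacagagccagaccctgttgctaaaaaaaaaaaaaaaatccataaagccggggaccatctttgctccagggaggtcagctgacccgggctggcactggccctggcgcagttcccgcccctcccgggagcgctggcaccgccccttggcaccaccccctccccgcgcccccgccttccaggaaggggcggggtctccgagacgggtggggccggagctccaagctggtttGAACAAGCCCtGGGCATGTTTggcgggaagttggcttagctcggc
AEN, chr15:88621090-88621389, plus strand, half-site 34 bases before the start
AEN: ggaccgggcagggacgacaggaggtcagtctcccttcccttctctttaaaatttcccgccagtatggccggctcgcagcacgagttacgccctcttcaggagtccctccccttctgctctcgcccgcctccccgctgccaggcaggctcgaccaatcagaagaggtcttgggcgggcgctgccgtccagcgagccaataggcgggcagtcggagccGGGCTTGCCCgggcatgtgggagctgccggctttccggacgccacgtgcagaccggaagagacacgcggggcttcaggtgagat
FDXR, chr17:74872945-74873244, minus strand, half-site 11 bases before the start
FDXR: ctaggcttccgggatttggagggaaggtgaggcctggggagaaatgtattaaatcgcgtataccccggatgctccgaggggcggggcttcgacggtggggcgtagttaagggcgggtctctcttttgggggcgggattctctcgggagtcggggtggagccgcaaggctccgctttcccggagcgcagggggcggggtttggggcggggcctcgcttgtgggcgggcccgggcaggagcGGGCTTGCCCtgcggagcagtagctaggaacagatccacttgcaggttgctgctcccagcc
RPS27L, chr15:63157428-63157727, minus strand, half-site 59 bases before the start
RPS27L: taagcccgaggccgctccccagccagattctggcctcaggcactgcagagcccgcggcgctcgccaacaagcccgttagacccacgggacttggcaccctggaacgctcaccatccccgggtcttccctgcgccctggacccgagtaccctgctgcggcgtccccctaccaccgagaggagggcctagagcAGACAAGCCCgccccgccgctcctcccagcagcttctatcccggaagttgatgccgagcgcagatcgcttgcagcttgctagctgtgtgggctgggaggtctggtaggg
PANK1, chr10:89645193-89645492, minus strand, half-site 23 bases before the start
PANK1: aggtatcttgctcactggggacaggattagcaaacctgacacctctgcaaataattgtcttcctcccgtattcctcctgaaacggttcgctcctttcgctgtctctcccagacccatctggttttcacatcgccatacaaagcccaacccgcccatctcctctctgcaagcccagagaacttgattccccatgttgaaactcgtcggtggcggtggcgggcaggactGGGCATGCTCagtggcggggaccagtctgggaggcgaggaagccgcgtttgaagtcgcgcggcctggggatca
The first 4 genes are each called in more than 1 comparison below, whereas PANK1, which encodes a pantothenate kinase, was called in none. The other members with a half-site were ACTA2, called in several comparisons, and PLK2, called in no depletion with glucose and lower on starvation of control cells. Windows of MDM2, XPC, ZMAT3, SPATA18 and other members with an entry held no match in these 300 bases, which says nothing of other regions of those genes.

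After INTS13 depletion 20 of the 34 members rose and 0 fell, by 1.26-fold to 8.79-fold, and 9 of them at least 2-fold. The median log2 fold change of the 34 was 0.53, against 0.01 over all genes tested, and 6.53% of all genes were called higher and 6.23% lower (edgeR, adjusted p under 0.05). In bulk RNA a change in the number of cells that express a gene and a change in RNA per cell cannot be told apart, here and below. Libraries of depleted and control cells did not overlap for any of the 20. These genes were already picked by the test on the same libraries, so this is a description and no further support. The share of all genes without overlap is not given here. The other 14 lay between -0.10 and 0.52 on the log2 scale. The heat map of fold changes shows these calls beside those of the other comparisons.

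**Figure D1:**
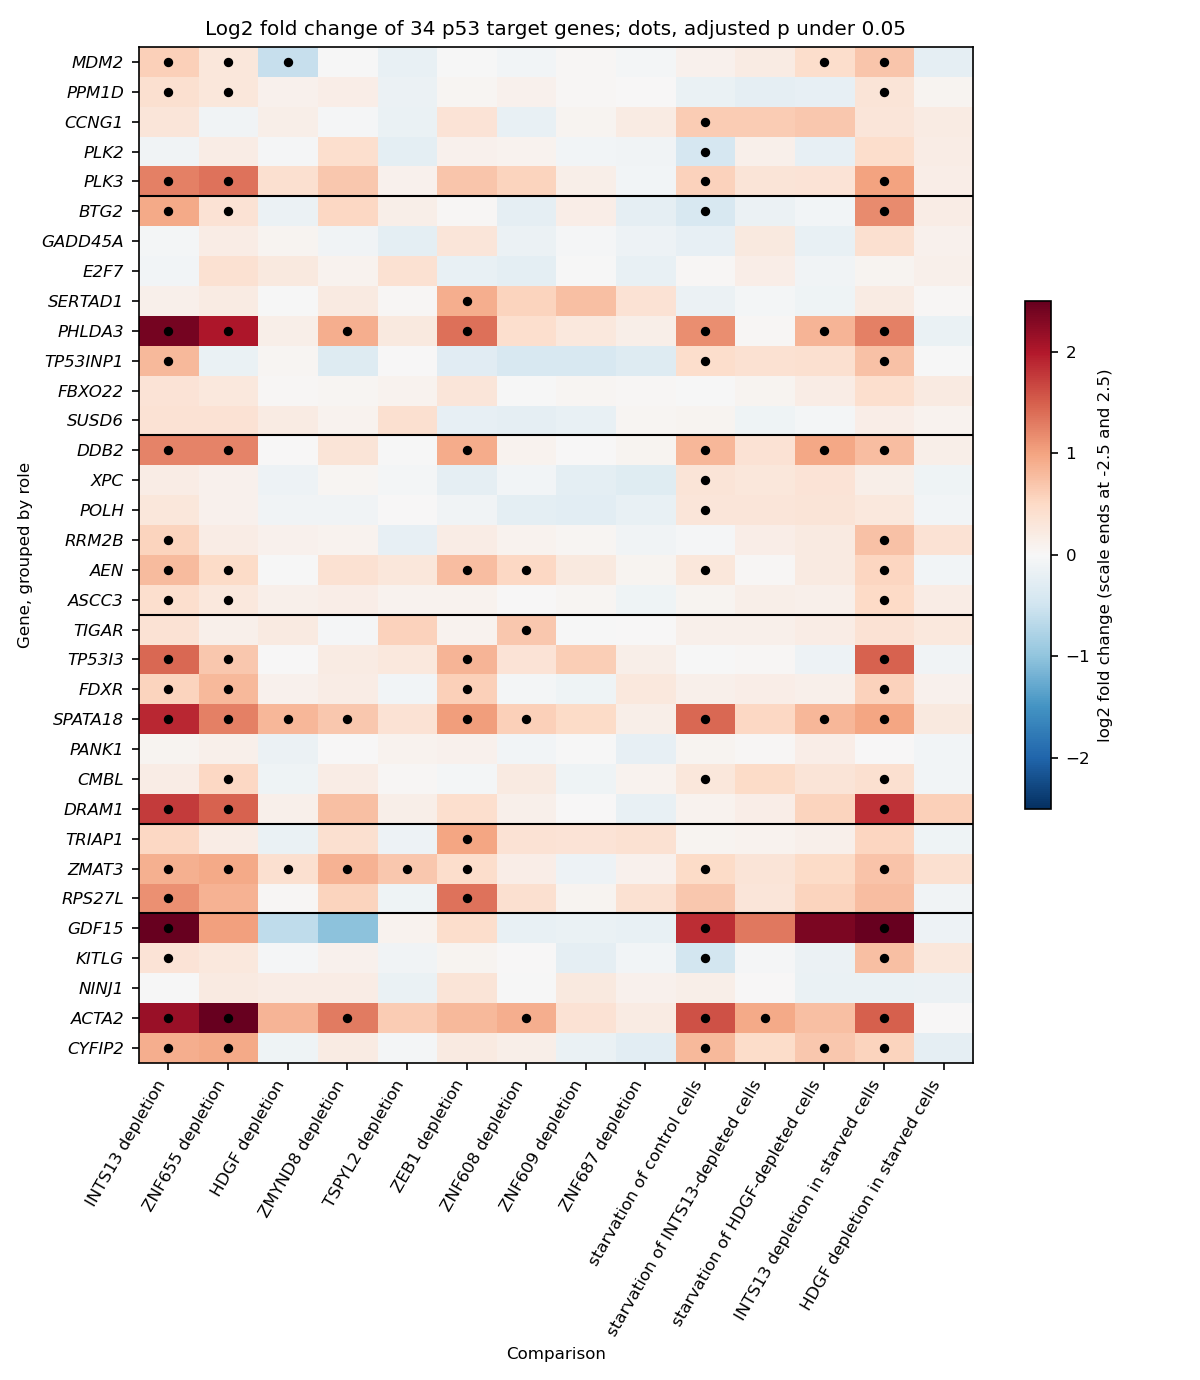
Log2 fold change of the 34 tested genes (rows, grouped by role) in each of 14 comparisons (columns), red for higher and blue for lower in the depleted or starved cells; dots mark adjusted p under 0.05. The INTS13 columns with and without glucose hold 20 dots each, the ZNF655 column 16, and the ZNF609 and ZNF687 columns 0.

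Of 5 genes grouped under feedback on p53, 3 rose. MDM2 had 320 and 299 CPM in INTS13-depleted cells, against 201, 209, 207 and 205 CPM in controls. The groups were well separated (log2 fold change 0.59 ± 0.09 SE, adjusted p = 7.33e-05). PLK3, a polo-like kinase, had 3.93 and 4.81 CPM, against 1.56, 1.61, 2.21 and 1.98 CPM in controls (1.25 ± 0.21, adjusted p = 1.39e-04). PPM1D, the phosphatase that reverses p53 phosphorylation, rose by less (0.39 ± 0.08). CCNG1 (0.30 ± 0.25, adjusted p = 0.502) and PLK2 (-0.10 ± 0.15, adjusted p = 0.740) did not pass.

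Of 8 members grouped under cell cycle and growth control, 3 rose. PHLDA3, a pleckstrin-domain protein that blocks AKT at the membrane, had 36.7 and 34.6 CPM in INTS13-depleted cells, against 8.79, 6.04, 5.69 and 6.37 CPM in controls. The depleted libraries lay far above every control (log2 fold change 2.40 ± 0.18, adjusted p = 6.04e-10). BTG2, an antiproliferative factor that works with the deadenylase complex, had 34.998 and 36.3 CPM, against 16.8, 19.0, 20.0 and 18.5 CPM (0.94 ± 0.11, adjusted p = 1.85e-06). TP53INP1, a stress protein that acts with p53 and in autophagy, also rose (0.81 ± 0.11). It overlaps NDUFAF6 on the opposite strand, which had a mean of 735 counts per library against 531 for TP53INP1. The part of NDUFAF6 in the TP53INP1 value was not tested. GADD45A, the growth arrest gene, had a value of -0.05 ± 0.20 (edgeR, adjusted p = 0.912) and E2F7, a repressor of cell cycle genes, -0.06 ± 0.15.

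Of 6 members grouped under DNA repair and nucleotide supply, 4 rose. DDB2, which recognises ultraviolet lesions, had 30.7 and 29.0 CPM in INTS13-depleted cells, against 14.8, 11.3, 11.8 and 12.7 CPM in controls. The groups were wide apart (log2 fold change 1.24 ± 0.17, adjusted p = 1.06e-05). AEN, a nuclease (0.79 ± 0.10), RRM2B, a ribonucleotide reductase subunit (0.55 ± 0.11), and ASCC3, a helicase (0.42 ± 0.08), rose by less. XPC, the partner of DDB2 in lesion recognition (0.18 ± 0.12), and POLH, a translesion polymerase (0.27 ± 0.10, adjusted p = 0.0847), did not pass.

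Of 7 members grouped under mitochondria, redox balance and metabolism, 4 rose. SPATA18, which acts in mitochondrial quality control, had 13.6 and 12.7 CPM in INTS13-depleted cells, against 4.31, 3.57, 2.91 and 3.35 CPM in controls (log2 fold change 1.89 ± 0.12, adjusted p = 4.07e-11). DRAM1, a lysosomal membrane protein of the autophagy pathway, had 5.11 and 5.02 CPM, against 1.87, 0.902, 1.48 and 1.77 CPM (1.74 ± 0.23, adjusted p = 6.84e-06). TP53I3, a quinone reductase homologue, had 16.0 and 14.4 CPM, against 6.35, 5.33, 4.91 and 6.01 CPM (1.43 ± 0.19, adjusted p = 1.06e-05). For these 3 genes the groups lay far apart, whereas FDXR, the ferredoxin reductase of mitochondria, rose by 0.55 ± 0.11. TIGAR, a phosphatase that lowers glycolytic flux, reached 0.35 ± 0.15 and did not pass (adjusted p = 0.132).

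ZMAT3, a zinc finger protein that binds RNA, rose in INTS13-depleted cells (0.89 ± 0.12). RPS27L, a paralog of ribosomal protein S27, had 54.7 and 57.4 CPM, against 28.4, 24.0, 27.0 and 21.9 CPM in controls (1.15 ± 0.32, adjusted p = 0.0166). The groups did not overlap, but the SE of RPS27L, whose reads may be shared with its paralog or with LACTB on the other strand, was the second largest of the 20. TRIAP1, a mitochondrial lipid transfer factor, reached 0.52 ± 0.27 and did not pass (adjusted p = 0.226).

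Among secreted, membrane and cytoskeletal members, GDF15, a secreted stress factor of the TGF-beta family, had 24 and 23 counts in INTS13-depleted libraries, against 6, 0, 3 and 1 in controls. It was barely detected in either group, and its fold had the largest size and the largest SE (log2 fold change 3.14 ± 0.56, adjusted p = 3.33e-04). ACTA2, smooth muscle actin, had 7.51 and 6.73 CPM, against 1.70, 1.57, 1.52 and 1.57 CPM (2.16 ± 0.23, adjusted p = 3.01e-07). ACTA2 overlaps FAS on the opposite strand, and FAS, a death receptor gene with a mean of 340 counts per library against 133 for ACTA2, was itself higher in these cells (26.2 ± 1.27 against 5.57 ± 0.253 CPM, log2 fold change 2.24). The kit keeps strand, but the strand setting of the counting was not given in the sources used here, and the part of FAS in the ACTA2 value was not tested. CYFIP2, a subunit of the WAVE actin complex, rose by 0.90 ± 0.15 and KITLG, the stem cell factor, by 0.33 ± 0.11, and NINJ1, which ruptures membranes of dying cells, did not pass (-0.02 ± 0.10).

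Of the 20 calls, 16 held with each library left out in turn. PPM1D lost its call without INTS13 library 4 (log2 fold change 0.30), RRM2B without INTS13 library 3 (0.46) and RPS27L without either INTS13 library (1.08 to 1.21 over libraries left out). KITLG lost it without either INTS13 library or without control 3a, 3b or 4b (0.29 to 0.38).

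CDKN1A, the cell cycle inhibitor p21 and a p53 target outside the 35, was at 108 ± 1.60 CPM in INTS13-depleted cells and 17.9 ± 2.00 CPM in controls (log2 fold change 2.60 ± 0.13, adjusted p = 2.83e-13). Of 75 other p53 targets tested, 28 rose and 2 fell (median log2 fold change 0.24). Of 24 genes of p53 and its regulators, RCHY1, a ubiquitin ligase for p53 and also its target, rose (0.71 ± 0.11), and KAT5 (-0.36 ± 0.11) and BRD7 (-0.35 ± 0.06) fell. KAT5 lost its call without either INTS13 library.

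ZNF655 depletion raised 16 of the 34 members and lowered 0, with a median log2 fold change of 0.32 against 0.02 over all genes, and 6.57% of all genes were called higher and 4.88% lower. INTS13 and ZNF655 depletion were read against the same 4 controls. TP53INP1, RRM2B, RPS27L, GDF15 and KITLG were called for INTS13 depletion alone and CMBL, a hydrolase, for ZNF655 depletion alone, which is no test of a difference.

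ACTA2 had 11.985 and 9.69 CPM in ZNF655-depleted cells, against 1.70, 1.57, 1.52 and 1.57 CPM in controls (log2 fold change 2.76 ± 0.22, adjusted p = 5.63e-09). This was its highest level with glucose in any group, and FAS was again higher in the same libraries (18.3 ± 1.34 against 5.57 ± 0.253 CPM). PHLDA3 had 27.7 and 26.9 CPM, against 8.79, 6.04, 5.69 and 6.37 CPM (2.02 ± 0.18, adjusted p = 3.09e-08). DRAM1 had 4.21 and 4.26 CPM, against 1.87, 0.902, 1.48 and 1.77 CPM (1.48 ± 0.23). Depleted and control libraries were apart for all 3 genes.

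PLK3 had 3.95 and 5.39 CPM, against 1.56, 1.61, 2.21 and 1.98 CPM in controls (1.35 ± 0.20). SPATA18 had 8.86 and 8.16 CPM, against 4.31, 3.57, 2.91 and 3.35 CPM (1.26 ± 0.13). DDB2 had 33.0 and 26.6 CPM, against 14.8, 11.3, 11.8 and 12.7 CPM (1.23 ± 0.17). The groups did not overlap, and SPATA18 lay below its level after INTS13 depletion. CYFIP2 had 105 and 93.7 CPM, against 53.5, 51.4, 47.8 and 54.7 CPM (0.94 ± 0.15). ZMAT3 had 56.2 and 52.4 CPM, against 27.2, 29.4, 30.4 and 26.3 CPM (0.94 ± 0.12). FDXR had 32.0 and 27.5 CPM, against 19.3, 16.6, 16.1 and 16.2 CPM (0.80 ± 0.11), and the groups were apart for all of them.

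MDM2 rose by 0.28 ± 0.09 after ZNF655 depletion (263 and 237 CPM, against 201 to 209 CPM; adjusted p = 0.0480). The call was lost with any 1 of the 6 libraries left out, as was that of ASCC3 (0.27 ± 0.08). Without ZNF655 library 3 the count was 9 members and without library 4 it was 10. With the controls labelled for ZMYND8 in place of the second-set controls, 13 members were called, of which 11 were shared with the 16. MDM2, ASCC3, DRAM1, TP53I3 and CMBL were not called there, and E2F7 and SUSD6, a membrane protein, were called in addition; 5.16% of all genes were called higher and 3.94% lower in that comparison. Of the other 75 p53 targets 21 rose and 1 fell, CDKN1A among those that rose (1.88 ± 0.14).

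INTS13 and ZNF655 depletion were also compared with each other. 5 members were higher after INTS13 depletion and 0 lower, with 3.14% of all genes called higher and 3.66% lower. TP53INP1 had 32.8 and 29.5 CPM in INTS13-depleted cells, against 16.7 and 15.1 CPM in ZNF655-depleted cells (log2 difference 0.97 ± 0.13, adjusted p = 2.23e-05). TP53I3 had 16.0 and 14.4 CPM, against 9.79 and 8.16 CPM (0.76 ± 0.22, adjusted p = 0.0378). BTG2 had 34.998 and 36.3 CPM, against 25.5 and 22.1 CPM (0.58 ± 0.13, adjusted p = 0.00644). SPATA18 (0.63 ± 0.14) and GDF15 (2.10 ± 0.60) completed the 5, and for ACTA2 and PHLDA3 the difference did not pass. The TP53INP1 values may hold reads of NDUFAF6 on the opposite strand, which was not tested. TP53INP1 was the call that held with each of the 4 libraries left out; the count was 2 without INTS13 library 3 or 4, 3 without ZNF655 library 3 and 1 without ZNF655 library 4.

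**Figure D2:**
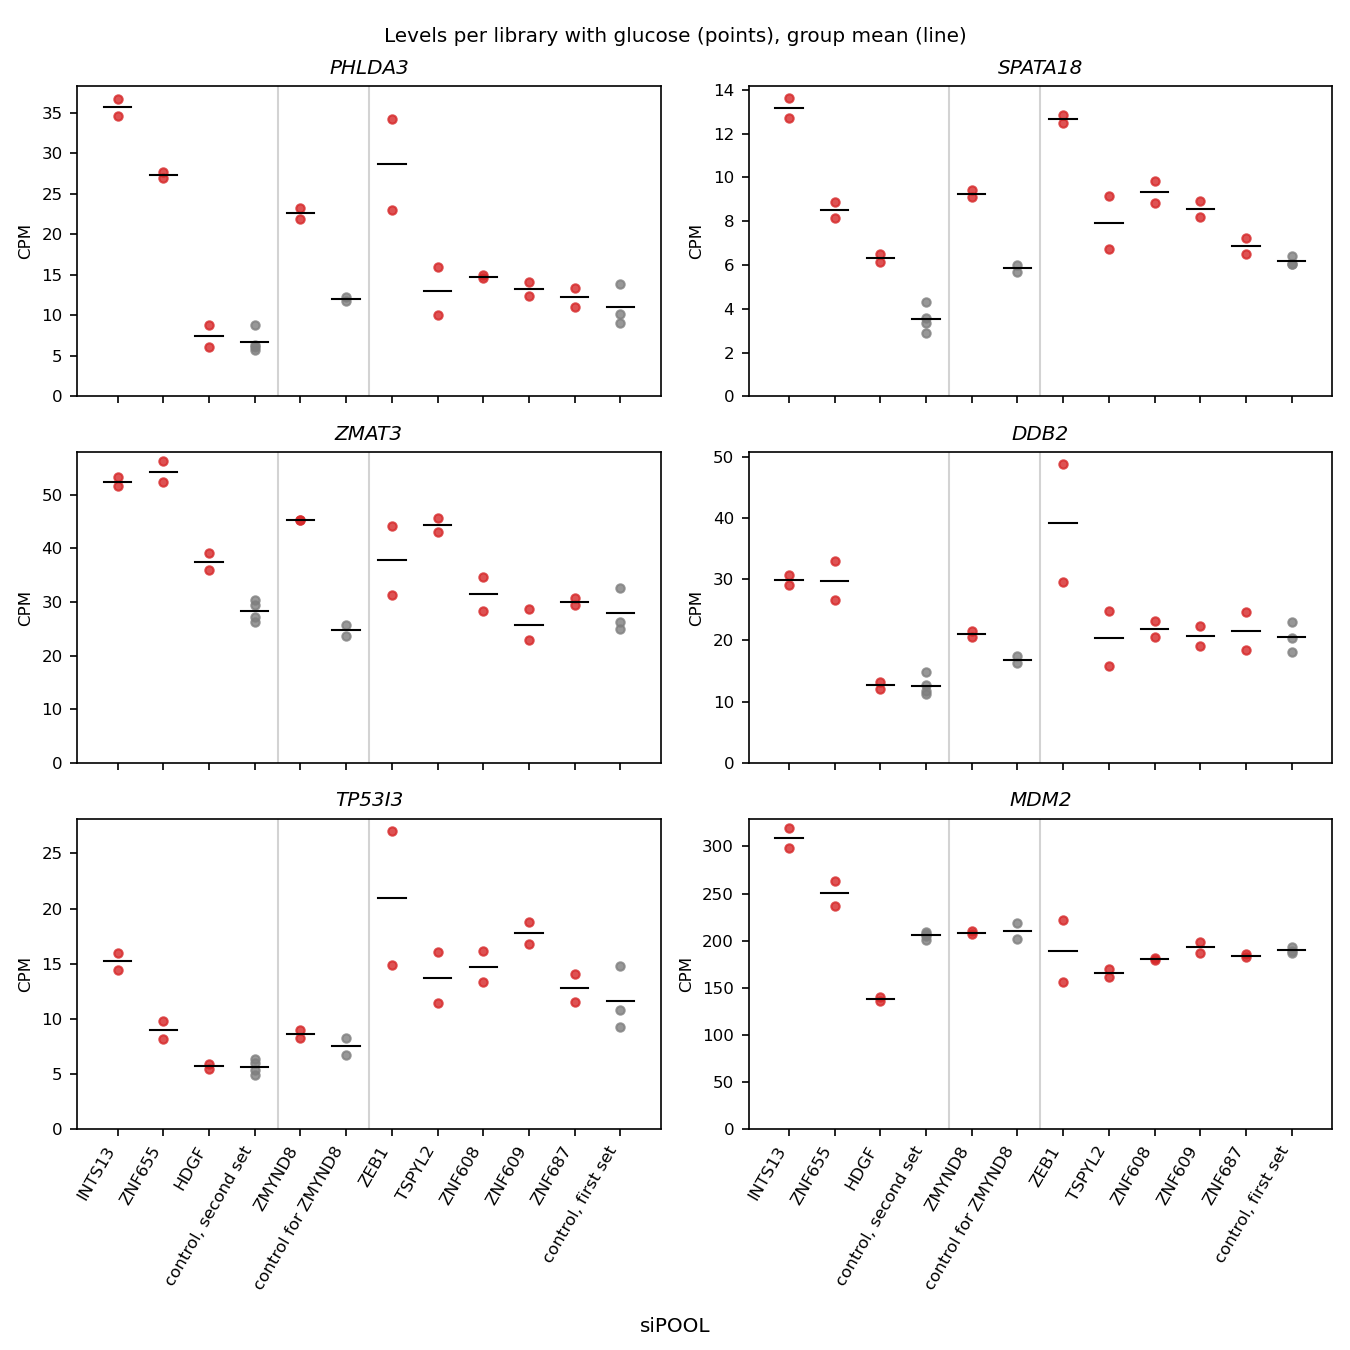
CPM of 6 members in each library with glucose, red for depleted and grey for control cells, with the group mean as a line; grey verticals separate the 3 sets. PHLDA3 lies at 34.6 to 36.7 CPM after INTS13 depletion and 5.69 to 8.79 CPM in its controls, and MDM2 lies at 136 and 140 CPM after HDGF depletion and 201 to 209 CPM in the same controls.

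HDGF depletion, which gave the lowest level of its target among the 9, changed 3 members. MDM2 had 140 and 136 CPM in HDGF-depleted cells, against 201, 209, 207 and 205 CPM in controls, the reverse of its rise after INTS13 depletion. It fell by 0.58 on the log2 scale (SE 0.10, adjusted p = 4.36e-04). SPATA18 rose, with 6.498 and 6.15 CPM, against 4.31, 3.57, 2.91 and 3.35 CPM (0.83 ± 0.13, adjusted p = 2.38e-04). ZMAT3 rose, with 39.1 and 36.0 CPM, against 27.2 to 30.4 CPM (0.41 ± 0.12, adjusted p = 0.0470).

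Over all genes 1.89% were called higher and 2.6% lower after HDGF depletion, beside 2 and 1 of the 34 members. Calls of MDM2 and SPATA18 held with each library left out, and ZMAT3 lost its call without either HDGF library or without control 3a, 3b or 4b (log2 fold change 0.33 to 0.45). PHLDA3 (0.15 in log2) and DDB2, at 13.2 and 12.1 CPM against 11.3 to 14.8 CPM in controls, overlapped with the controls. FAS rose (0.97 ± 0.12), as did CDKN1A (0.58 ± 0.14), whose call was lost without either HDGF library, and of 75 other p53 targets 6 rose and 4 fell. Set directly against HDGF depletion, INTS13 depletion gave 16 higher members and 0 lower, with 4.89% of all genes called higher and 3.34% lower. MDM2 was 2.24-fold higher (log2 1.16 ± 0.11, adjusted p = 9.03e-08), and the count was 10 without HDGF library 4.

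ZMYND8 depletion raised 4 members, with 0.446% of all genes called higher and 0.301% lower. ZMAT3 had 45.3 and 45.2 CPM in ZMYND8-depleted cells, against 25.7 and 23.7 CPM in their controls (log2 fold change 0.87 ± 0.14, adjusted p = 0.00112). ACTA2 had 5.35 and 5.63 CPM, against 2.28 and 2.13 CPM (1.31 ± 0.28, adjusted p = 0.0214). PHLDA3 had 23.2 and 21.9 CPM, against 12.3 and 11.8 CPM (0.91 ± 0.22, adjusted p = 0.0449). SPATA18 (0.66 ± 0.15, adjusted p = 0.0275) had no overlap of libraries either. The calls of ACTA2, PHLDA3 and SPATA18 were lost with any 1 of the 4 libraries left out (0.61 to 1.35 in log2 over the 3 genes), and that of ZMAT3 without the control 4 library, which left 0. MDM2, at 210 and 207 CPM against 218 and 202 CPM, overlapped (-0.01 ± 0.11). CDKN1A (0.74 ± 0.17) and TNFRSF10B, a death receptor gene (0.87 ± 0.08), were the 2 of 75 other targets that rose, and CDKN1A lost its call with any library left out.

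In the first set ZEB1 depletion raised 10 of 34 members and lowered 0 (median log2 fold change 0.30 against 0.01 over all genes), beside 1.78% of all genes higher and 1.99% lower. SPATA18 had 12.5 and 12.8 CPM in ZEB1-depleted cells, against 6.06, 6.41 and 6.05 CPM in controls (1.04 ± 0.13, adjusted p = 1.14e-05). AEN had 170 and 162 CPM, against 116, 90.9 and 84.9 CPM (0.77 ± 0.11, adjusted p = 9.76e-05). Both genes lay close together in the depleted libraries and apart from all controls. PHLDA3 had 34.2 and 23.0 CPM, against 13.9, 9.06 and 10.2 CPM (1.37 ± 0.19, adjusted p = 6.67e-05). DDB2 had 48.8 and 29.5 CPM, against 23.1, 18.1 and 20.4 CPM (0.93 ± 0.17, adjusted p = 0.00238). Both were apart from controls but differed widely between the ZEB1 libraries.

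All 3 members grouped under survival, RNA and ribosome were called, yet their libraries overlapped with the controls. RPS27L had 186 CPM in ZEB1 library 1 and 60.2 CPM in library 2, against 75.6 CPM in control 1a and 34.7 and 32.8 CPM in controls 1b and 2 (1.36 ± 0.33, adjusted p = 0.0213). TRIAP1 had 166 and 68.1 CPM, against 90.5, 46.0 and 40.6 CPM (0.99 ± 0.28, adjusted p = 0.0437). In both genes the library numbered 1 was the higher in each group, and the plot of first-set libraries by number shows the same for CCNG1, which was not called. SERTAD1, a regulator of cyclin-dependent kinase and E2F activity, had 13.7 and 7.20 CPM, against 7.65, 4.47 and 4.63 CPM (0.90 ± 0.21) and overlapped as well, as did ZMAT3 with 31.4 and 44.1 CPM against 32.6, 24.9 and 26.2 CPM (0.44 ± 0.12). FDXR (0.59 ± 0.12) did not overlap. TP53I3 had 27.0 and 14.85 CPM, against 14.75, 10.8 and 9.23 CPM (0.85 ± 0.20), so ZEB1 library 2 lay barely above control 1a. The TP53I3 call was lost without control 1b or 2, and its fold change ran from 0.36 to 1.22 in log2 over libraries left out.

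**Figure D3:**
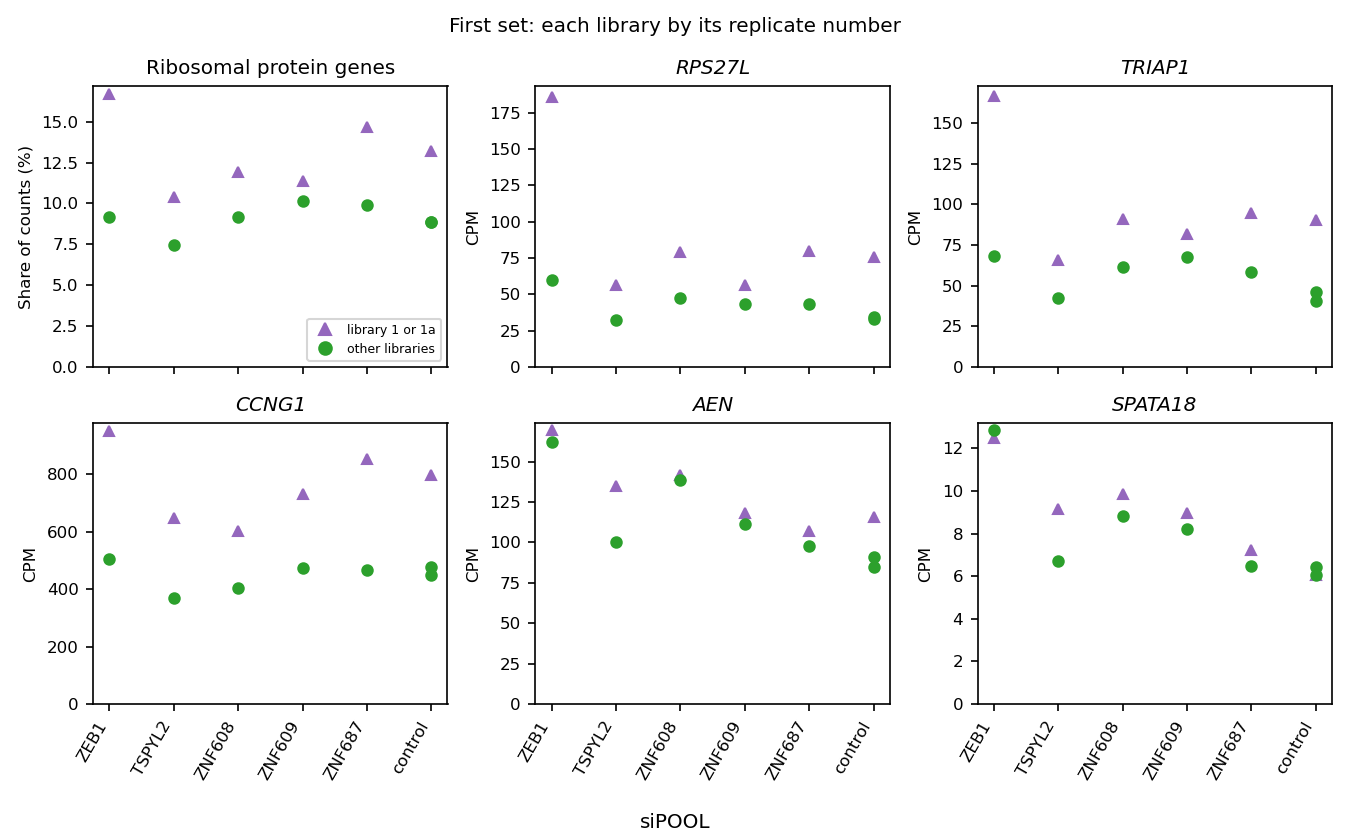
Share of counts on ribosomal protein genes and CPM of 5 members in the first set, with libraries 1 and 1a as triangles and the others as circles. RPS27L, TRIAP1 and CCNG1 are higher in the triangle of each group, while SPATA18 lies at 12.5 and 12.8 CPM in the ZEB1 libraries and 6.05 to 6.41 CPM in the 3 controls.

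Ribosomal protein genes took 16.7% and 9.16% of the counts of ZEB1 libraries 1 and 2, against 13.2%, 8.85% and 8.87% in controls 1a, 1b and 2. With first-set libraries alone and the replicate number as a block, 8 of the 10 calls held, while SERTAD1 (adjusted p = 0.0533) and ZMAT3 (adjusted p = 0.156) did not pass. Without the libraries numbered 1 (control 1a among them, control 1b kept), an alternative chosen after the data were seen in which the lone ZEB1 library is assumed to vary like the other groups, all 10 were called, RPS27L at 0.84 and TRIAP1 at 0.66 in log2, among 13 members. The count was 4 without ZEB1 library 1, 19 (13 higher, 6 lower) without ZEB1 library 2, 16 without control 1a and 5 without control 1b or control 2. PHLDA3, AEN and SPATA18 kept their calls in each case. Over these cases the calls over all genes also ran from far below to far above the 726 with all libraries. The shifts in the count of members are therefore no result about the members alone.

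MDM2 had 156 and 222 CPM in ZEB1-depleted cells, below and above the controls at 189, 193 and 187 CPM (-0.01 ± 0.10, adjusted p = 0.983), so it was not called while 10 other members were. CDKN1A was at 61.4 ± 10.5 against 22.0 ± 2.32 CPM (1.48 ± 0.14, adjusted p = 7.00e-07). Of 75 other p53 targets 12 rose and 2 fell. MDM4, the partner of MDM2 that inhibits p53, fell to 69.9 ± 19.4 CPM in ZEB1-depleted cells, against 99.5 ± 13.1 CPM in controls (-0.51 ± 0.13, adjusted p = 0.0240). The MDM4 call was lost with the block, and without ZEB1 library 1 or control 1b or 2.

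ZNF608 depletion raised 4 members, with 1.08% of all genes called higher and 1.68% lower. TIGAR had 17.2 CPM in both ZNF608 libraries, against 9.24, 11.3 and 11.8 CPM in controls (0.67 ± 0.16, adjusted p = 0.0169). SPATA18 had 9.85 and 8.83 CPM, against 6.06, 6.41 and 6.05 CPM (0.60 ± 0.13, adjusted p = 0.00729). AEN had 141 and 139 CPM, against 116, 90.9 and 84.9 CPM (0.53 ± 0.11, adjusted p = 0.00634). The groups were apart for each of these, and TIGAR was called in no other depletion. ACTA2, with 5.02 and 4.38 CPM against 2.46, 2.37 and 2.67 CPM (0.90 ± 0.23), lost its call in the blocked fit (adjusted p = 0.0946). MDM4 fell to 56.6 ± 1.56 CPM, against 99.5 ± 13.1 CPM in controls (-0.81 ± 0.13, adjusted p = 4.24e-04), a call kept with each library left out. The count of called members was 0 without ZNF608 library 1, 1 without library 2 and 2 without control 2. MDM2 did not pass (182 and 180 CPM against 187 to 193 CPM), and CDKN1A rose by 0.58 ± 0.15, a call lost without either ZNF608 library or control 1b or 2.

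TSPYL2 depletion raised 1 member, ZMAT3, with 43.0 and 45.6 CPM in TSPYL2-depleted cells, against 32.6, 24.9 and 26.2 CPM in controls (0.67 ± 0.12, adjusted p = 0.00566). The libraries did not overlap, the blocked fit gave an adjusted p of 0.0609, and over all genes 1.14% rose and 1.08% fell. The call was lost without TSPYL2 library 2, which left 0 members, against 2 without control 1a and 3 without TSPYL2 library 1. MDM2, at 170 and 162 CPM, lay below the controls at 187 to 193 CPM and did not pass (-0.19 ± 0.10, adjusted p = 0.333), and 0 of 75 other p53 targets were called by edgeR, with 6 at an unadjusted p under 0.05.

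ZNF609 and ZNF687 depletion gave 0 called members by edgeR, where 0.192% of all genes were called higher and 0.379% lower for ZNF609, and 0.0674% higher and 0.187% lower for ZNF687. At an unadjusted p under 0.05 there were 7 members for ZNF609 and 3 for ZNF687, and DESeq2 called 2 and 0. Without control 1a the counts were 2, both higher, and 1, lower. MDM2 had 199 and 187 CPM after ZNF609 depletion (0.03 ± 0.10) and 186 and 182 CPM after ZNF687 depletion (-0.04 ± 0.10), against 187 to 193 CPM in the 3 controls. Of 75 other p53 targets, DYRK3, a kinase (0.35 ± 0.07), and TNFRSF10B (0.34 ± 0.08) rose after ZNF609 depletion and 0 after ZNF687 depletion, where 5 had an unadjusted p under 0.05. Both lost their calls without either ZNF609 library, without control 1b or 2, and with the block.

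**Figure D4:**
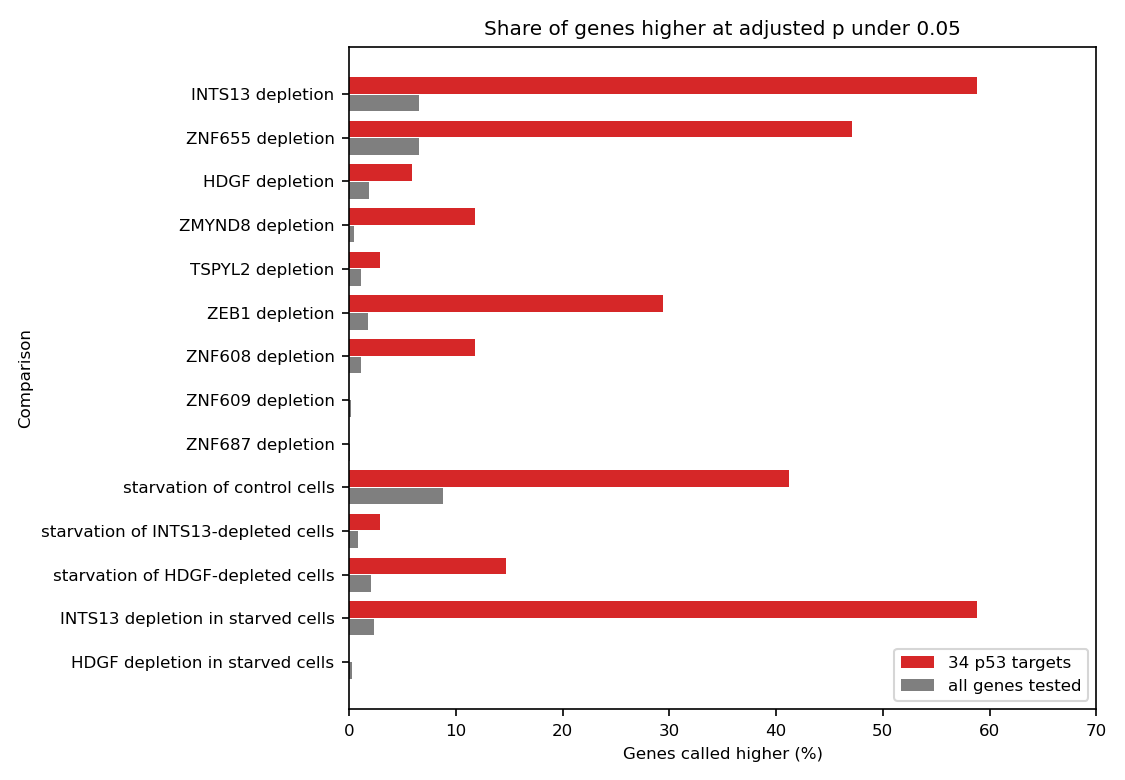
Percent of the 34 tested p53 targets (red) and of all genes tested (grey) called higher at adjusted p under 0.05 in each comparison. INTS13 depletion stands at 58.8% against 6.53%, ZNF655 depletion at 47.1% against 6.57% and ZEB1 depletion at 29.4% against 1.78%.

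Over the 9 depletions with glucose, 10 of the 34 tested members were called higher in none, 8 in 1, 8 in 2, 3 in 3, 3 in 4 and 2 in 6. SPATA18 and ZMAT3 were the pair called in 6, though the depletions of a set share controls and the counts are not independent. In the blocked fit of first-set libraries ZMAT3 lost its TSPYL2 and ZEB1 calls, which leaves 4, and ACTA2 its ZNF608 call, which leaves 3, while SPATA18 lost none. PHLDA3, AEN and ACTA2 were called in 4, and DDB2, TP53I3 and FDXR in 3. The fold change of PHLDA3, TP53I3, SPATA18 and ACTA2 was above 0 in all 9, the lowest values being 0.15, 0.01, 0.15 and 0.20 in log2. CCNG1, PLK2, GADD45A, E2F7, FBXO22, SUSD6, XPC, POLH, PANK1 and NINJ1 were called in none; FBXO22 encodes an F-box protein of a ubiquitin ligase.

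Glucose starvation of control cells raised 14 members and lowered 3, where 8.77% of all genes were called higher and 8.05% lower, and the median of the members was 0.13 in log2 against 0.01 over all genes. SPATA18 had 8.69, 10.6, 8.86 and 10.2 CPM without glucose, against 4.31, 3.57, 2.91 and 3.35 CPM with glucose (1.43 ± 0.11, adjusted p = 3.82e-09). ACTA2 had 3.70, 6.14, 4.41 and 5.09 CPM, against 1.70, 1.57, 1.52 and 1.57 CPM (1.60 ± 0.21, adjusted p = 6.13e-06). FAS did not pass in the same comparison (0.25 ± 0.10, adjusted p = 0.0969).

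PHLDA3 had 13.9, 16.0, 14.0 and 16.7 CPM in starved control cells, against 8.79, 6.04, 5.69 and 6.37 CPM with glucose (1.16 ± 0.16, adjusted p = 1.38e-05). DDB2 had 22.1, 23.8, 20.3 and 23.5 CPM, against 14.8, 11.3, 11.8 and 12.7 CPM (0.83 ± 0.14, adjusted p = 1.99e-04). CYFIP2 had 83.1, 88.7, 93.5 and 96.1 CPM, against 53.5, 51.4, 47.8 and 54.7 CPM (0.80 ± 0.13, adjusted p = 9.12e-05). In each of these genes every starved library lay above every library with glucose. XPC (0.32 ± 0.10) and POLH (0.31 ± 0.09), which passed the test in no depletion with glucose, and CCNG1 (0.63 ± 0.20) rose as well. POLH overlaps GTPBP2 on the opposite strand, which had a mean of 1680 counts per library against 1490 for POLH. The part of GTPBP2 in the POLH value was not tested. GDF15 was the largest in fold but rested on 6 to 11 counts per starved library, against 0 to 6 (1.84 ± 0.58, adjusted p = 0.0286).

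The 3 members that fell were KITLG, BTG2 and PLK2. KITLG had 23.6, 22.2, 18.1 and 19.7 CPM in starved cells, against 26.9, 28.8, 31.7 and 27.4 CPM with glucose (-0.46 ± 0.09, adjusted p = 7.49e-04). BTG2 had 15.2, 14.6, 11.4 and 15.4 CPM, against 16.8, 19.0, 20.0 and 18.5 CPM (-0.40 ± 0.10, adjusted p = 0.00567), and PLK2 fell to a mean of 4.60 against 6.14 CPM (-0.41 ± 0.12). All 3 were without overlap, and KITLG and BTG2 had risen after INTS13 depletion. MDM2 did not pass (211, 227, 223 and 220 CPM, against 201 to 209 CPM; 0.10 ± 0.08, adjusted p = 0.441).

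Of the 17 starvation calls 9 held with each library left out, and the count was 11 without control 3b with glucose. GDF15 lost its call without control 3b or 4b with glucose or starved control 4b (1.44 to 2.62 in log2), PLK2 without control 3b with glucose, and PLK3, whose libraries overlapped, without control 3a or 3b with glucose or starved control 3a or 4b. XPC, POLH, AEN and CMBL lost theirs without starved control 3b, and XPC, AEN and CMBL also without some of the others. CCNG1 kept its call only without control 3a with glucose (0.57 to 0.67). Of 16 genes of the integrated stress response, 11 rose in the same libraries and 0 fell, NUPR1 most in fold (3.14 ± 0.46). Of 75 other p53 targets 16 rose, CDKN1A among them (0.78 ± 0.12), and 8 fell. MDM4 rose to 156 ± 6.20 CPM in starved cells, against 112 ± 6.22 CPM with glucose (0.48 ± 0.10, adjusted p = 8.92e-04).

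In INTS13-depleted cells starvation called 1 member, ACTA2, with 14.3 and 13.2 CPM without glucose, against 7.51 and 6.73 CPM with glucose (0.94 ± 0.24, adjusted p = 0.0484), where 0.856% of all genes were called higher and 0.467% lower. The call was lost with any 1 of the 4 libraries left out. PHLDA3 had 38.3 and 34.7 CPM in starved INTS13-depleted cells, against 36.7 and 34.6 CPM with glucose, so its libraries overlapped where those of control cells were apart. SPATA18 had 19.6 and 18.4 CPM, against 13.6 and 12.7 CPM. In HDGF-depleted cells 5 members rose on starvation, with 2.09% of all genes called higher and 1.45% lower. DDB2 had 26.0 and 23.6 CPM, against 13.2 and 12.1 CPM (0.97 ± 0.20, adjusted p = 0.00706), and MDM2 had 175 and 200 CPM, against 140 and 136 CPM (0.44 ± 0.11, adjusted p = 0.0214). SPATA18 (0.84 ± 0.15), PHLDA3 (0.85 ± 0.23) and CYFIP2 (0.68 ± 0.18) were the others. The call of SPATA18 held with each library left out, and the count was 1 without HDGF library 3 or 4 with glucose and 2 without either starved library.

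Among starved cells INTS13 depletion raised 20 members and lowered 0, with a median log2 fold change of 0.55, where 2.32% of all genes were called higher and 1.54% lower. Of the 20, 19 were also called with glucose, RPS27L being called only with and CMBL only without it. BTG2 had 34.006 and 30.2 CPM in starved INTS13-depleted cells, against 15.2, 14.6, 11.4 and 15.4 CPM in starved controls (1.18 ± 0.11, adjusted p = 1.51e-07). DRAM1 had 6.08 and 5.32 CPM, against 1.39, 1.36, 1.98 and 1.68 CPM (1.82 ± 0.23, adjusted p = 1.22e-05). TP53I3 had 17.3 and 14.1 CPM, against 5.23, 5.08, 5.84 and 6.21 CPM (1.48 ± 0.19, adjusted p = 2.32e-05). None of the 3 overlapped, and MDM2, at 379 and 330 CPM against 211 to 227 CPM, reached its highest level of all 15 groups (0.69 ± 0.09, adjusted p = 3.08e-05).

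ACTA2 had 14.3 and 13.2 CPM, against 3.70, 6.14, 4.41 and 5.09 CPM, with no overlap. PHLDA3 had 38.3 and 34.7 CPM, against 13.9, 16.0, 14.0 and 16.7 CPM (1.27 ± 0.18). GDF15 had 26 and 81 counts in the starved INTS13-depleted libraries, against 7, 6, 9 and 11 in starved controls (2.61 ± 0.41), and its call was lost without the library of 81 counts (1.86). Of the 20 calls 12 held with each library left out, and without starved INTS13 library 3 the count was 13. HDGF depletion in starved cells gave 0 called members by edgeR, with 6 at an unadjusted p under 0.05 and 0 by DESeq2, where 0.265% of all genes were called higher and 0.394% lower; MDM2 had 175 and 200 CPM, against 211, 227, 223 and 220 CPM (-0.23 ± 0.10, adjusted p = 0.335).

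**Figure D5:**
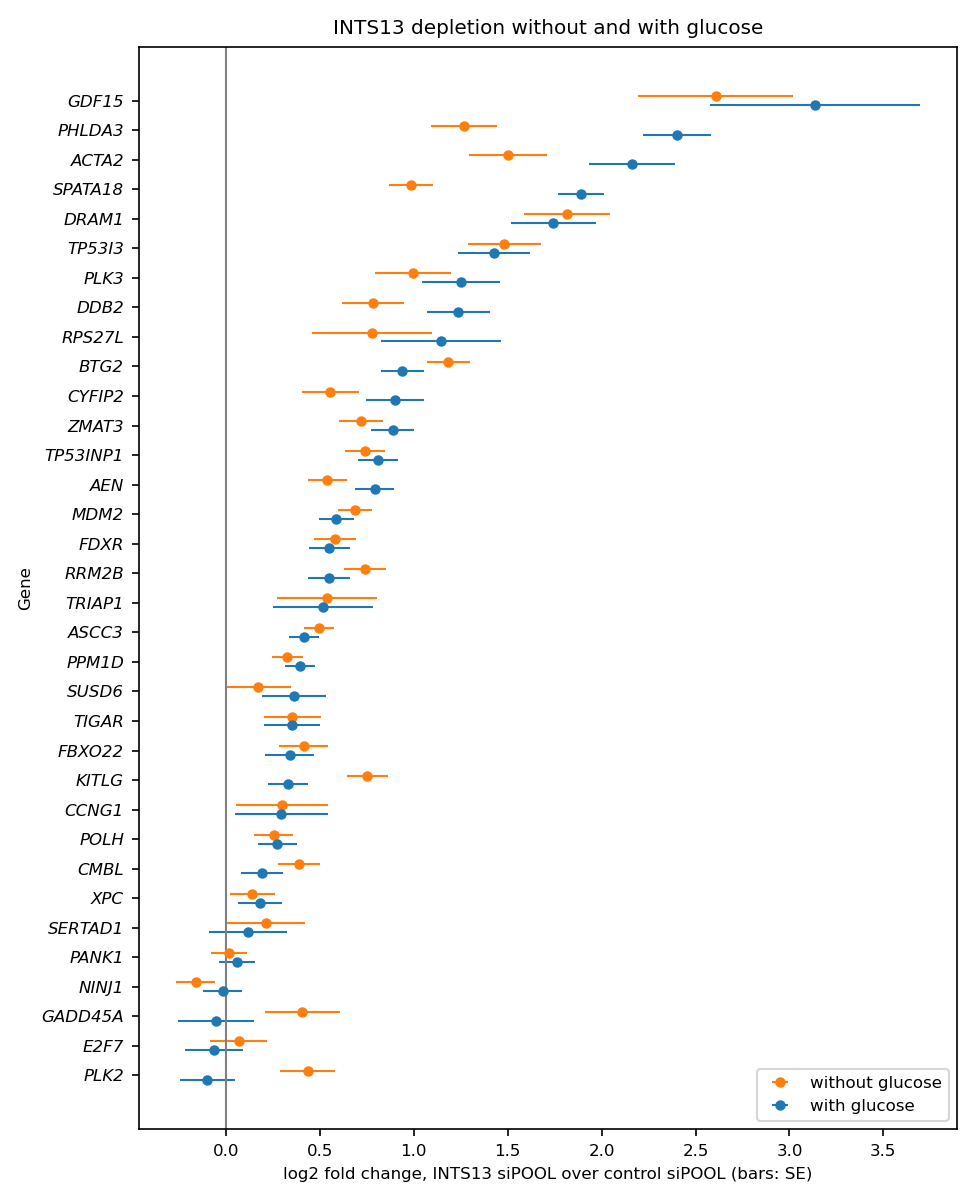
Log2 fold change (point) with its SE (bar) of INTS13 depletion over control for the 34 members, without glucose in orange and with glucose in blue. PHLDA3 lies at 1.27 without and 2.40 with glucose and SPATA18 at 0.99 and 1.89, whereas DRAM1 and TP53I3 differ by less than their SEs.

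Whether starvation acted differently in INTS13-depleted cells was tested as an interaction. 0 members were called by edgeR (0.0156% of all genes were called higher and 0% lower), 5 had an unadjusted p under 0.05 and DESeq2 called 2, both lower. PHLDA3 and SPATA18, named here after their values were seen, had the smallest p-values. For SPATA18 the starvation change in INTS13-depleted cells minus that in control cells was -0.90 in log2 (SE 0.18, adjusted p = 0.0739), and for PHLDA3 it was -1.13 (SE 0.26, adjusted p = 0.226). DESeq2 gave adjusted p-values of 0.00103 for SPATA18 and 0.0213 for PHLDA3, and SPATA18 was called by edgeR without control 3a with glucose (-1.02, adjusted p = 0.0156). With libraries of the set alone edgeR called SPATA18 (adjusted p = 0.00579) and PHLDA3 (0.00190). It also called both with the replicate block (0.0104 and 0.00694), although the numbers do not pair the second set. With no filter edgeR called PHLDA3 (0.00102) and not SPATA18 (0.370). With DESeq2 size factors it called neither. For HDGF depletion the interaction gave 0 members by edgeR, 4 at an unadjusted p under 0.05 and 0 by DESeq2, MDM2 having a value of 0.35 ± 0.13 (adjusted p = 0.922). The MDM2 interaction thus did not pass after adjustment over all genes at this number of libraries, which does not show that it is absent. The fall of MDM2 after HDGF depletion passed with glucose and not without.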

How the data were processed

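Read counts per gene for 35 libraries were deposited by the authors as 1 table, labelled as taken before removal of duplicates. Per the submitters' processing notes FastQC, cutadapt and STAR were used on hg38, without versions. Which tool, annotation and strand setting made the counts is not given in the sources used here. By their labels, 15 groups in 3 sets were formed. The table gives a length of exons per gene, a value of another kind that the authors deposited beside the counts, which was used for levels per kb.

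Genes passing filterByExpr (19275 of 60665) were scaled by TMM and fitted with a quasi-likelihood model in edgeR 4.0.16 (R 4.3.3), 1 mean for each of the 15 groups and 20 residual degrees of freedom. P-values are two-sided and Benjamini-Hochberg adjusted over all 19275 genes, and a gene with an adjusted p under 0.05 is called. Levels (CPM) are counts relative to the TMM-scaled library size. Alternatives were DESeq2 1.42.0, its size factors, no filter, the libraries of a set alone, replicate blocks, each library left out, and other controls for ZNF655. Figures used matplotlib 3.10.9.

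Some genes of the lists are not reported here. The members and lists were chosen with earlier results of these data known. The 35 members are all accounted for; values per library are given for up to 10 called members with the largest change for INTS13 and ZNF655 depletion and up to 6 for the others, and for MDM2. Titles and descriptions number the first-set controls differently: those titled 1a, 1b and 2 are described as 1, 2a and 2b. The text uses the titles' names, and the descriptions' numbers, which put control 1b with number 2, were used for the block and for leaving out number 1. With them the numbers pair the first set, where deviations of same-numbered libraries from their group means had r over 0.1 in 15 of 15 pairs of groups (12795 genes, median r 0.716). They did not pair the second set (5 of 21) or the third (r 0.0757 for 1 pair). Libraries of a group differed by more than sampling noise (chi-square per degree of freedom at least 2.89). Members overlapping genes on the opposite strand included MDM2 (the carboxypeptidase M gene, a mean of 109 counts against 6070 for MDM2), FBXO22 (NRG4), TRIM22 (TRIM5), ACTA2 (FAS, STAMBPL1), RPS27L (LACTB), TP53INP1 (NDUFAF6), POLH (GTPBP2), TP53I3 (FAM228B) and CYFIP2 (ADAM19). An overlapping gene had the higher mean count for TP53INP1 (735 against 531) and POLH (1680 against 1490), as for ACTA2 and TRIM22. The part of such genes in the values of members was not tested.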

Additional observations from a re-analysis of the deposited data

Results flagged for a closer look

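Among 68 pairs of a gene and a group of 4 libraries, 2 held a library far from the other 3, where chance gives about 1 in 20. FDXR was at 19.3 CPM in control library 3a with glucose, against 16.1 to 16.6 CPM in the other 3. TIGAR was at 15.4 CPM in starved control library 4b, against 17.5 to 17.9 CPM in the other 3. The FDXR call after INTS13 depletion held without control 3a, and TIGAR was not called on starvation.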

How the results depend on the processing

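Of 1343 recomputed values for 122 calls of members, 1116 stayed on the same side of the threshold, 227 no longer passed and 0 changed direction; of 1417 for 129 calls of other genes, 1066 stayed, 351 no longer passed and 0 changed direction. Counts of called members for INTS13 and ZNF655 depletion and for starvation of control cells stayed within 1.5 times under each alternative other than leaving out libraries. With libraries of the set alone the counts were 5 for HDGF, 11 for ZMYND8, 0 for TSPYL2, 1 for ZEB1 and 0 for ZNF608; 12 and 13 for starvation of INTS13-depleted and HDGF-depleted cells; 7 for HDGF depletion in starved cells; 13 for INTS13 against ZNF655, 26 for INTS13 against HDGF and 2 for the INTS13 interaction. With the replicate number as a block over all libraries they were 6 for TSPYL2, 7 for ZNF608, 3 for ZNF609, 6 and 12 for starvation of INTS13-depleted and HDGF-depleted cells, 1 for HDGF depletion in starved cells, 11 and 25 for INTS13 against ZNF655 and HDGF, and 2 for the INTS13 interaction; in the second set the numbers do not pair the samples. The block in first-set libraries alone left 0 for TSPYL2, and beside the calls named above it changed no other call of a member. TSPYL2 had 2 with size factors, 2 with no filter and 2 with DESeq2; ZNF609 had 2 with no filter and 2 with DESeq2; with no filter and with DESeq2, starvation of INTS13-depleted cells had 2 and 3 and the INTS13 interaction 1 and 2. Without the number 1 libraries of the first set, chosen after seeing the data, TSPYL2 had 5, ZNF608 10, ZNF609 8 and ZNF687 2. The cause of these shifts was not tested. Over all genes, libraries of the set alone called 5624 for INTS13, against 2459 as reported, 5513 for ZNF655, against 2208, and 28 for ZEB1, against 726. Calls over all genes thus moved with the fit too, and the shifts in counts of members are no result about the members alone.

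With each library left out in turn the counts ran from 17 to 20 for INTS13, 9 to 13 for ZNF655, 2 to 3 for HDGF, 0 to 1 for ZMYND8, 0 to 3 for TSPYL2, 4 to 19 for ZEB1, 0 to 3 for ZNF608, 0 to 2 for ZNF609 and 0 to 1 for ZNF687. They ran from 11 to 15 for starvation of control cells, 0 to 0 in INTS13-depleted and 1 to 2 in HDGF-depleted cells, 13 to 18 for INTS13 and 0 to 0 for HDGF depletion in starved cells, 1 to 3 for INTS13 against ZNF655, 10 to 12 against HDGF, and 0 to 1 for the INTS13 interaction. Where a group is left with 1 library, it is assumed to vary like the others. Calls over all genes also shifted when libraries were left out, for starvation of control cells between 2408 and 3009. The ranges are therefore no result about the members alone. GDF15, PLK3, ACTA2 and DRAM1 are limited by their low counts.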

Other observations

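Some genes outside the 35 that restrain or serve p53 showed values not given above. Of 24 genes of p53 and its regulators, TSPYL2 depletion raised HIPK2 (0.81 ± 0.20 in log2), CREBBP (0.75 ± 0.17) and EP300 (0.72 ± 0.19), a kinase and 2 acetyltransferases that act on p53, and none of these 3 calls held with the replicate block in first-set libraries. ZNF655 depletion raised TP73 to 18.5 ± 0.0136 CPM, against 10.9 ± 2.04 CPM in controls (0.76 ± 0.20, adjusted p = 0.0134), a call lost without either ZNF655 library. Starvation of control cells lowered ASF1A (-0.46 ± 0.09) and raised HIPK2 (0.54 ± 0.16) and KAT5 (0.27 ± 0.08). The ASF1A call held with each library left out, that of HIPK2 was lost without control 3b or 4a with glucose or starved control 4a, and that of KAT5 held in 2 of 8 cases.

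Of 16 genes of the integrated stress response, 2 rose after INTS13 depletion, PSAT1 (1.06 ± 0.13), kept with each library left out, and SESN2, lost without either INTS13 library. After ZNF608 depletion 6 fell, of which ASNS alone (-1.33 ± 0.24) passed in the blocked fit of first-set libraries, and the ASNS call was lost without ZNF608 library 2. Of 14 interferon genes tested, 2 rose after INTS13 depletion and 3 after ZNF655 depletion, OAS3 most (1.47 ± 0.23). Both INTS13 calls were lost without either INTS13 library. Without ZNF655 library 3, OAS3 kept its call and IFIH1 and PARP9 lost theirs. Of 12 immediate early genes, JUN fell after INTS13 (-0.78 ± 0.13), ZNF655 (-1.24 ± 0.13), HDGF (-0.48 ± 0.12), ZEB1 (-0.54 ± 0.13) and ZNF608 depletion (-0.47 ± 0.13) and on starvation of control cells (-0.55 ± 0.10). The first 3 of these depletions and the starvation share their 4 controls. The JUN calls for INTS13 and ZNF655 depletion and for starvation held with each library left out. That for HDGF was lost without either HDGF library or control 3a, that for ZEB1 without ZEB1 library 1 or control 1b or 2, and that for ZNF608 without either ZNF608 library or control 1b or 2, and in the blocked fit.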
